A study of Rattus norvegicus with 9 samples.

Results

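The insulin-like growth factor (IGF) axis is described here as 10 genes, chosen by name: the ligands Igf1 and Igf2, the receptors Igf1r and Igf2r, and the binding proteins Igfbp2, Igfbp3, Igfbp4, Igfbp5, Igfbp6 and Igfbp7. They were chosen with earlier results of these data known and were found by symbol among the 17337 genes of the count table. All 10 were present and passed the filter on low counts. Igfbp1 and Igfals, with at most 1 and 3 counts in any library, were kept on a separate list of other pathway genes. RNA came from cultured cardiac fibroblasts of Sprague Dawley rats at 3 ages, with 3 libraries each: fetal at embryonic day 18, neonatal on postnatal day 1, and adult at 7 weeks. All cells were primary cultures at passage 0, grown to confluency in DMEM with 10% fetal bovine serum and 0.1 mM ascorbic acid, so every age was exposed to serum growth factors before lysis. The labels name no sorting step and do not say whether libraries of an age came from separate animals or cultures, so p-values measure only the spread between these samples, which may be technical. The design asks how expression in these cells differs between the ages.

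IGF1 and IGF2 are small secreted relatives of insulin that drive growth and survival through the tyrosine kinase receptor encoded by Igf1r. The product of Igf2r does not signal in that way: it is the cation-independent mannose 6-phosphate receptor, which carries lysosomal enzymes and takes up IGF2 for degradation. The binding proteins hold IGFs in the extracellular space, where they can lengthen the life of the ligand or keep it from its receptor, and proteases such as pappalysin release it again. In rodents Igf2 is an imprinted fetal growth gene that falls after birth, while Igf1 expression comes under the control of growth hormone after birth, and connective-tissue cells and macrophages are both known sources of IGF1.

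Library totals ran from 13392825 to 22850491 assigned counts, and every adult library was shallower than every fetal and neonatal one. The 10 fibroblast markers had a summed level of 26495 to 76919 counts per 1000000 assigned reads (CPM, with library sizes scaled by TMM) across the 9 libraries, carried mostly by Col1a1, Col3a1 and Vim. Col1a2, among them, had only 1 to 21 counts per library, which is no measure of its expression beside that of Col1a1. Transcripts of other cells were present too. Summed over 13 cardiomyocyte markers, fetal libraries held 10089 to 14187 CPM, neonatal ones 6454 to 7112 CPM and adult ones 306 to 321 CPM. The 8 endothelial markers summed to 17.4 to 27.3 CPM in fetal, 30.0 to 34.0 in neonatal and 98.5 to 118 in adult libraries. In the adult libraries Tie1 alone gave 68.6 to 72.5 CPM of this sum. Summed over 12 macrophage markers, fetal libraries held 14.7 to 71.1 CPM, neonatal ones 166 to 182 CPM and adult ones 4383 to 6072 CPM. None of the 5 defining macrophage markers was at 0 in all libraries of an age, and Cd163, among the other markers, was at 0 in every fetal and neonatal library. Fetal replicate 3 stood apart from its age. Lung epithelial markers summed to 116 CPM there against 1.81 and 2.16 in the other fetal libraries, mostly from Cldn18 (58.5 CPM) and Epcam (47.0 CPM). Nkx2-1 was at 9.83 CPM there (185 counts, against 2 and 3) and Sftpc at 0.744 CPM (14 counts, against 0 and 0). Sftpb was at 0 in every library of the series. Fibroblast markers of fetal replicate 3 summed to 26495 CPM against 50095 and 53252, with 8 of 10 lowest there and Pdgfra and Vim highest there. In bulk RNA fewer cells of a type and less RNA per cell cannot be told apart.

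Members of the axis changed in both directions and by large amounts. Igf2, Igfbp2 and Igfbp5 fell from fetal to neonatal to adult cells, Igf1 and Igfbp3 were higher in adult cells than at either earlier age, Igfbp6 and Igfbp7 were higher in neonatal and adult than in fetal cells, and both receptors were lower in adult cells. The same counts for all tested genes are given beside those of the axis as a background, and the 3 comparisons share libraries with one another. Between neonatal and fetal cells 6 of the 10 genes passed the test (adjusted p under 0.05, edgeR's quasi-likelihood test with Benjamini-Hochberg adjustment over 11337 genes), against 36.3% of all tested genes, with 2 higher (18.3% of all genes) and 4 lower (18%). Between adult and fetal cells 9 of 10 passed, against 70.5% of all genes, with 4 higher (34.9%) and 5 lower (35.5%). Between adult and neonatal cells 8 of 10 passed, against 63.5% of all genes, with 3 higher (31.6%) and 5 lower (31.8%). The libraries of the 2 ages compared did not overlap for 7 of the 10 genes between neonatal and fetal cells (57.4% of all genes), 9 between adult and fetal cells (71.8%) and 9 between adult and neonatal cells (76.1%). Calls were therefore common among all genes in the adult comparisons. The median size of the log2 difference was 1.57 over the axis and 0.29 over all tested genes between neonatal and fetal cells, 2.78 and 0.63 between adult and fetal cells, and 1.44 and 0.52 between adult and neonatal cells. A call with a log2 difference of at least 1 was made for 6, 9 and 7 of the 10 genes in these comparisons, against 11.2%, 32.4% and 25% of all genes. The 10 genes were chosen with earlier results known, so these contrasts with all genes are descriptions and no test of the axis.

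**Figure D1:**
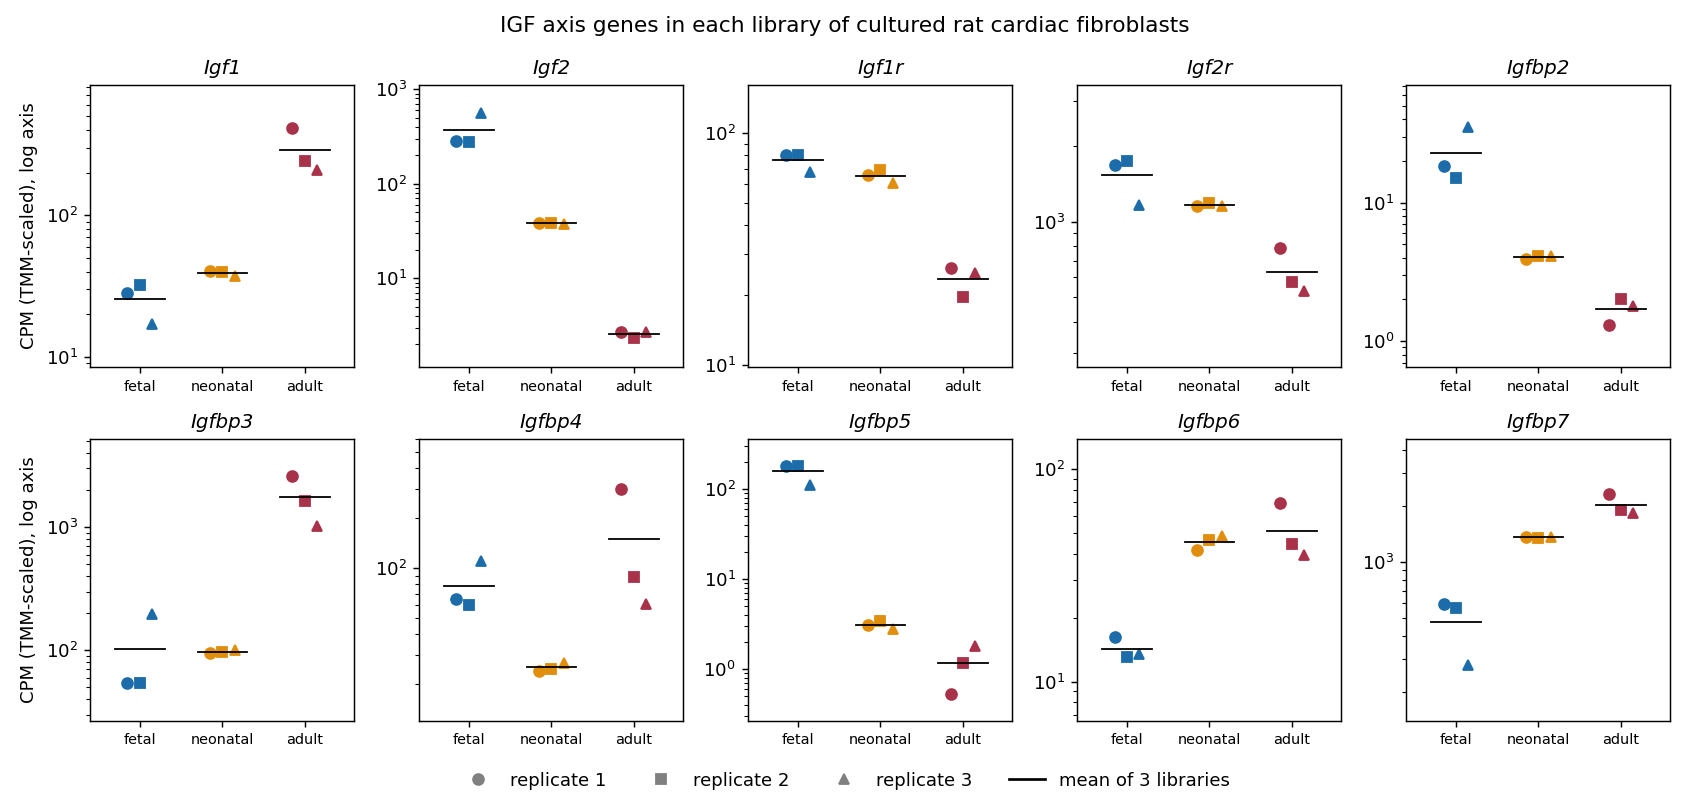
Level of each IGF axis gene in every library, in TMM-scaled CPM on a log axis that differs between panels. Points are single libraries with a symbol for each replicate number and bars are means of 3 libraries. Igf2, Igfbp2 and Igfbp5 step down with age, from means of 373, 23.0 and 159 CPM in fetal to 2.56, 1.71 and 1.16 CPM in adult libraries, and Igf1 and Igfbp3 are highest in all adult libraries.

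**Figure D2:**
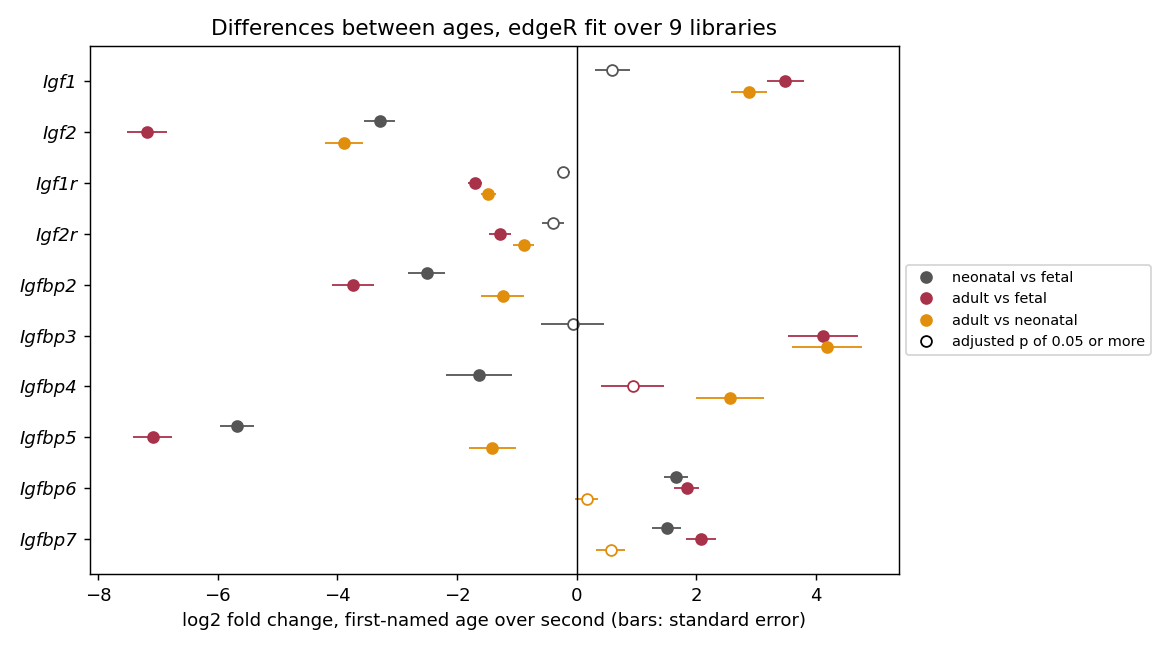
Log2 fold changes of the 10 genes with standard errors for the 3 pairs of ages, from the fit to all 9 libraries. Filled points passed the test and open points did not. The points run from -7.18 for Igf2 between adult and fetal cells to 4.18 for Igfbp3 between adult and neonatal cells.

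The ligands exchanged places with age. Igf2 (rn6 chromosome 1, 215828102 to 215838209, minus strand) was at 286, 279 and 554 CPM in fetal replicates 1, 2 and 3, at 38.4, 38.4 and 37.4 CPM in the neonatal and at 2.68, 2.31 and 2.70 CPM in the adult replicates. The 3 ages did not overlap, and the highest library was the fetal one that stood apart. The neonatal level was 9.80-fold lower than the fetal level (log2 -3.29, SE 0.26, edgeR adjusted p = 5.954e-05). The adult level was 14.8-fold lower than the neonatal level (log2 -3.89, SE 0.32, edgeR adjusted p = 1.112e-05) and 145-fold lower than the fetal level (log2 -7.18, SE 0.33, edgeR adjusted p = 2.437e-07). The adult values rest on 32 to 36 counts per library, so Igf2 was low but detected in each of them. Without fetal replicate 3 the neonatal and adult differences from fetal cells were -2.89 and -6.79 on the log2 scale.

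Igf1 (chromosome 7, 28412198 to 28486609, plus strand) ran the other way. It was at 28.1, 32.1 and 16.9 CPM in the fetal, at 40.1, 39.5 and 37.4 CPM in the neonatal and at 415, 240.2 and 209.7 CPM in the adult replicates. All adult libraries lay above all others, and adult replicate 1 was the highest. The adult level was 11.2-fold higher than the fetal level (log2 3.48, SE 0.31, edgeR adjusted p = 1.14e-05) and 7.40-fold higher than the neonatal level (log2 2.89, SE 0.30, edgeR adjusted p = 4.563e-05). The neonatal libraries also lay above every fetal one, but the difference of 0.60 on the log2 scale did not pass the test (SE 0.29, edgeR adjusted p = 0.1383). Its adjusted p ran from 0.04914, without adult replicate 1, to 0.4134 over 15 alternatives.

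Per length of exon, as CPM divided by the exon length in kilobases (RPKM), the ratio of Igf2 to Igf1 fell from 4.21, 3.60 and 13.6 in fetal replicates 1, 2 and 3 to 0.397, 0.403 and 0.415 in the neonatal libraries. In adult libraries Igf1 was the higher by 374, 251 and 188 times. These ratios are descriptions without a test. The summed level of both ligands was 93.7 ± 29.8 RPKM for fetal, 28.4 ± 0.862 RPKM for neonatal and 150.4 ± 57.7 RPKM for adult libraries (SD, n = 3). It was thus lowest in the neonatal libraries, where neither ligand was at its highest level.

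Both ligands moved with markers of another cell type. Macrophage markers were highest in the adult libraries, as Igf1 was: each of the 12 had its 3 highest values in the adult libraries. Within the adult age the summed level ran in the reverse order. Igf1 was at 415, 240.2 and 209.7 CPM in adult replicates 1, 2 and 3, where macrophage markers summed to 4383, 5303 and 6072 CPM. Of the 12 markers 10 were lowest in adult replicate 1, but Itgam (194 CPM, against 180.1 and 187) and Cd163 (6.28 CPM, against 2.82 and 2.25) were highest there, as Igf1 was. Of the 3 fetal libraries, replicate 3 had the most macrophage marker transcripts (71.1 CPM, against 14.7 and 15.2) and the least Igf1. Igf2 was highest in the fetal libraries, as 12 of 13 cardiomyocyte markers were, yet the sum of those markers was lowest in the fetal library with the most Igf2 (10089 CPM in replicate 3, against 13218 and 14187). Nppa alone was at 1607 CPM there, against 3685 and 3833. Of the 13 markers 8 were lowest in fetal replicate 3, and 4 (Tnni1, Ryr2, Csrp3 and Mybpc3) were highest there, as Igf2 was. The part of these cells in the ligand differences was not tested.

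**Figure D3:**
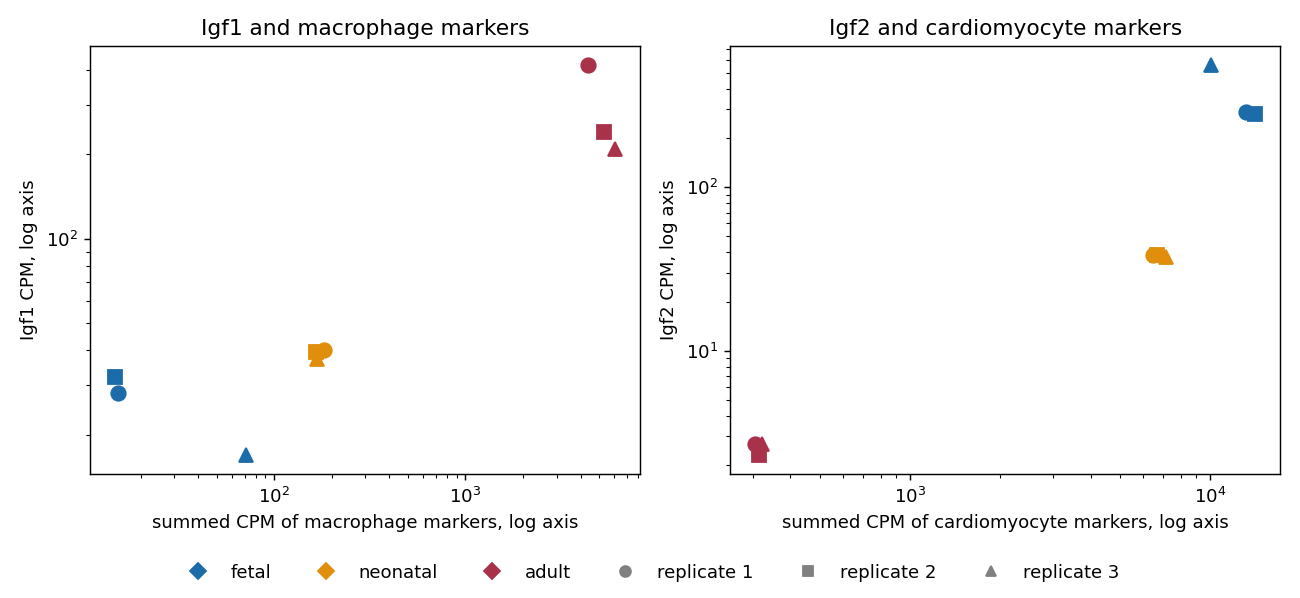
Igf1 against summed macrophage markers and Igf2 against summed cardiomyocyte markers in each of the 9 libraries, in CPM on log axes, with colours for ages and symbols for replicates. Igf1 reaches 415 CPM in the adult library with the lowest macrophage sum (4383 CPM), and Igf2 reaches 554 CPM in the fetal library with the lowest cardiomyocyte sum (10089 CPM).

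Both receptors were lower in adult cells. Igf1r (chromosome 1, 128924921 to 129207049, plus strand), the signalling receptor, was at 80.5, 80.5 and 68.2 CPM in the fetal, 66.0, 69.6 and 60.8 CPM in the neonatal and 26.2, 19.6 and 25.0 CPM in the adult replicates. Fetal and neonatal libraries overlapped, and all adult libraries lay below them. Igf1r was 3.24-fold lower in adult than in fetal cells (log2 -1.69, SE 0.12, edgeR adjusted p = 1.75e-06) and 2.78-fold lower than in neonatal cells (log2 -1.47, SE 0.12, edgeR adjusted p = 7.024e-06).

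Igf2r (chromosome 1, 48176106 to 48264479, plus strand), the clearance receptor, was at 1681, 1743 and 1166 CPM in the fetal, 1156, 1184 and 1155 CPM in the neonatal and 786, 574 and 529.6 CPM in the adult replicates. Fetal replicate 3 fell among the neonatal libraries, and the adult libraries again lay below all others. Igf2r was 2.43-fold lower in adult than in fetal cells (log2 -1.28, SE 0.18, edgeR adjusted p = 0.000161) and 1.85-fold lower than in neonatal cells (log2 -0.89, SE 0.18, edgeR adjusted p = 0.001906).

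Between neonatal and fetal cells neither receptor passed the test, with a log2 difference of -0.22 for Igf1r (SE 0.11, edgeR adjusted p = 0.1502) and -0.39 for Igf2r (SE 0.18, edgeR adjusted p = 0.1109). Without fetal replicate 3 these were -0.30 and -0.55 and passed (edgeR adjusted p = 0.03355 and 0.01984). Per length, Igf2r stood above Igf1r in every library, by 9.12 to 11.6 times for fetal, 9.07 to 10.1 times for neonatal and 11.3 to 16.0 times for adult libraries.

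The binding protein genes fell into those that were lost with age, those that rose and one with its lowest level in neonatal cells. Igfbp5 and Igfbp2 were lost. They are neighbours on chromosome 9 that point towards each other, Igfbp2 at 80118029 to 80144801 on the plus strand and Igfbp5 at 80154230 to 80166813 on the minus strand, with 9428 bases between their ends (rn6). Igfbp3 (chromosome 14, 87457647 to 87465374, minus strand) rose most. Sequences are displayed for Igfbp2 and Igfbp5, neighbours that each fell with age, and for Igfbp3, the gene of the axis with the largest rise. The 250 bases before the annotated start of each gene are shown. They are RefSeq sequences of build GRCr8, another build than that of the counts, on the strand of the gene: Igfbp2 at chr9:81864561-81864810, Igfbp5 at chr9:81914188-81914437 and Igfbp3 at chr14:86277945-86278194. Capitals mark matches on either strand to any of 4 motifs: TATAAA and TATATA, forms of the TATA box, GGGCGG, the GC box, and CACGTG, an E-box.
Igfbp2: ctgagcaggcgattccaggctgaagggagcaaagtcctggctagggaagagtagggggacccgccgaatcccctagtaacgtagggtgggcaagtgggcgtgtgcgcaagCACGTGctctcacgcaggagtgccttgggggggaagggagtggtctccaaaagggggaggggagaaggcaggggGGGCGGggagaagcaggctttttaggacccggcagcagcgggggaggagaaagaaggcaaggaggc
Igfbp5: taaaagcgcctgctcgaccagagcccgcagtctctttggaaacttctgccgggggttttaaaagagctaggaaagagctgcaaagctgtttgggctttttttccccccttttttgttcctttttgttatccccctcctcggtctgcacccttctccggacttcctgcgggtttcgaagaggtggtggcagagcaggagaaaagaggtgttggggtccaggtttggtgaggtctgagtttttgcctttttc
Igfbp3: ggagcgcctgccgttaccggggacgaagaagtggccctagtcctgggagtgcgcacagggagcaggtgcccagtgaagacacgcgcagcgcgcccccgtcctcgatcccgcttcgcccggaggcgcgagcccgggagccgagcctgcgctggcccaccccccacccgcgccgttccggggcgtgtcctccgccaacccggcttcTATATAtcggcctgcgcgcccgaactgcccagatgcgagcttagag
Igfbp3 held TATATA, beginning 46 bases before the start. Igfbp2 held GGGCGG and CACGTG, beginning 66 and 140 bases before the start. The Igfbp5 window held none of the 4. Of 33469 rat promoter windows of this length, TATAAA was in 12.9%, TATATA in 5.45%, GGGCGG in 30.5% and CACGTG in 5.59%. The share of G and C was 64.0% for Igfbp2, 51.6% for Igfbp5 and 71.6% for Igfbp3. All 10 genes of the axis had an entry in the promoter table. A match is a description of the letters and not a site of binding.

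Igfbp5, whose product binds IGFs and matrix, was at 184, 183 and 112 CPM in the fetal, 3.08, 3.39 and 2.78 CPM in the neonatal and 0.536, 1.16 and 1.80 CPM in the adult replicates. The ages did not overlap. The neonatal level was 51.2-fold lower than the fetal level (log2 -5.68, SE 0.28, edgeR adjusted p = 6.484e-06), the largest difference of the axis between these ages. The adult level was 2.65-fold lower again (log2 -1.41, SE 0.40, edgeR adjusted p = 0.01227), from 7, 16 and 24 counts, and 136-fold lower than the fetal level (log2 -7.08, SE 0.33, edgeR adjusted p = 1.759e-07). Most of its loss thus lay between embryonic day 18 and postnatal day 1, whereas Igf2 had log2 differences of -3.29 and -3.89 at the successive steps.

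Igfbp2, a binding protein abundant in fetal tissues, was at 18.4, 15.1 and 35.5 CPM in the fetal, 3.91, 4.09 and 4.14 CPM in the neonatal and 1.30, 2.02 and 1.80 CPM in the adult replicates. The ages did not overlap, and fetal replicate 3 was the highest. The neonatal level was 5.67-fold lower than the fetal level (log2 -2.50, SE 0.31, edgeR adjusted p = 0.0004556) and the adult level 13.4-fold lower (log2 -3.74, SE 0.35, edgeR adjusted p = 1.097e-05). The adult level was also 2.36-fold lower than the neonatal level (log2 -1.24, SE 0.36, edgeR adjusted p = 0.01447), a call lost without adult replicate 1 (edgeR adjusted p = 0.05553, the highest of 15 alternatives, whose lowest was 0.0001545).

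Igfbp3, the main carrier of IGFs in blood, was at 53.8, 53.9 and 198 CPM in the fetal, 95.5, 96.1 and 100.3 CPM in the neonatal and 2624, 1639 and 1031 CPM in the adult replicates. All adult libraries lay above all others, while the fetal libraries lay on both sides of the neonatal ones. The adult level was 17.3-fold higher than the fetal level (log2 4.11, SE 0.58, edgeR adjusted p = 0.0002234) and 18.1-fold higher than the neonatal level (log2 4.18, SE 0.59, edgeR adjusted p = 0.0002718). Between neonatal and fetal cells the log2 difference was -0.068 (SE 0.52, edgeR adjusted p = 0.9315). It was 0.85 without fetal replicate 3, still short of the test (edgeR adjusted p = 0.1473), and the difference between adult and fetal cells was then 5.03.

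Igfbp7 (chromosome 14, 33010300 to 33070192, plus strand) encodes a secreted relative of the family that binds IGFs weakly. It was at 591, 562 and 280.1 CPM in the fetal, 1360.2, 1343 and 1367 CPM in the neonatal and 2309, 1905 and 1836 CPM in the adult replicates. The ages did not overlap. The neonatal level was 2.84-fold higher than the fetal level (log2 1.51, SE 0.25, edgeR adjusted p = 0.002052) and the adult level 4.22-fold higher (log2 2.08, SE 0.25, edgeR adjusted p = 6.644e-05). The step from neonatal to adult, 0.57 on the log2 scale, missed the threshold (SE 0.24, edgeR adjusted p = 0.06337) and passed it in 4 of 15 alternatives, among them the fit without fetal replicate 3 (edgeR adjusted p = 5.289e-05). Its exons share 89 bases with Polr2b on the opposite strand, where reads were not assigned to either gene.

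Igfbp6 (chromosome 7, 143749385 to 143754017, plus strand) encodes a binding protein that prefers IGF2. It was at 16.3, 13.1 and 13.5 CPM in the fetal, 41.6, 46.1 and 48.5 CPM in the neonatal and 69.6, 44.6 and 39.2 CPM in the adult replicates. Neonatal and adult libraries overlapped and both lay above the fetal ones. The neonatal level was 3.18-fold higher than the fetal level (log2 1.67, SE 0.20, edgeR adjusted p = 0.0004256) and the adult level 3.57-fold higher (log2 1.84, SE 0.20, edgeR adjusted p = 3.62e-05). From neonatal to adult cells the log2 difference was 0.17 (SE 0.19, edgeR adjusted p = 0.4619).

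Igfbp4 (chromosome 10, 86950555 to 86962563, plus strand) encodes a binding protein that pappalysin cuts. It was at 65.0, 59.9 and 110.5 CPM in the fetal, 24.2, 24.9 and 27.0 CPM in the neonatal and 301, 88.5 and 60.8 CPM in the adult replicates. The neonatal libraries lay below all others, and adult replicate 1 was 4.03 times the mean of the other adult libraries. Igfbp4 was 5.92-fold higher in adult than in neonatal cells (log2 2.57, SE 0.56, edgeR adjusted p = 0.003587), and 1.56 on the log2 scale without adult replicate 1 (edgeR adjusted p = 0.001613). The neonatal level was 3.09-fold lower than the fetal level (log2 -1.63, SE 0.55, edgeR adjusted p = 0.04669), a call lost in 8 of 15 alternatives, among them the fits without any one fetal or neonatal library (adjusted p from 0.002266 to 0.2138 over all 15, DESeq2 included). Between adult and fetal cells the log2 difference was 0.94 (SE 0.53, edgeR adjusted p = 0.1421), -0.068 without adult replicate 1 (edgeR adjusted p = 0.8355) and 1.31 without adult replicate 3, where it passed (edgeR adjusted p = 0.03334).

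Per length, the binding protein transcripts changed in total and in make-up. Their summed level was 644 ± 127 RPKM for fetal, 1338 ± 13.5 RPKM for neonatal and 2690.2 ± 639 RPKM for adult libraries (SD, n = 3). Igfbp7, whose product binds IGFs weakly, made most of it, at 433, 1229 and 1827 RPKM on average. From fetal to neonatal libraries Igfbp5 fell from 97.9 to 1.90 RPKM, Igfbp4 from 36.3 to 11.7 and Igfbp2 from 17.8 to 3.13. Igfbp3 was at 42.4 and 40.4 RPKM, and Igfbp6 rose from 16.5 to 52.3. The rise of the sum at this step thus came from Igfbp7 and Igfbp6. Igfbp7 held the largest share in every library, from 50.9% to 73.0% for fetal, from 91.5% to 92.2% for neonatal and from 61.5% to 76.7% for adult libraries. Igfbp5 was next in fetal replicates 1 and 2, with 15.1% ± 1.20 (SD, n = 3) over all fetal libraries, and held 0.142% ± 0.0154 of the neonatal and 0.0297% ± 0.0207 of the adult sum. Igfbp3 took 3.02% ± 0.0563 in neonatal and 26.3% ± 6.19 in adult libraries. In fetal libraries its share was 7.59% ± 7.73, a mean set by replicate 3 with 16.5%. These shares are descriptions without a test.

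**Figure D4:**
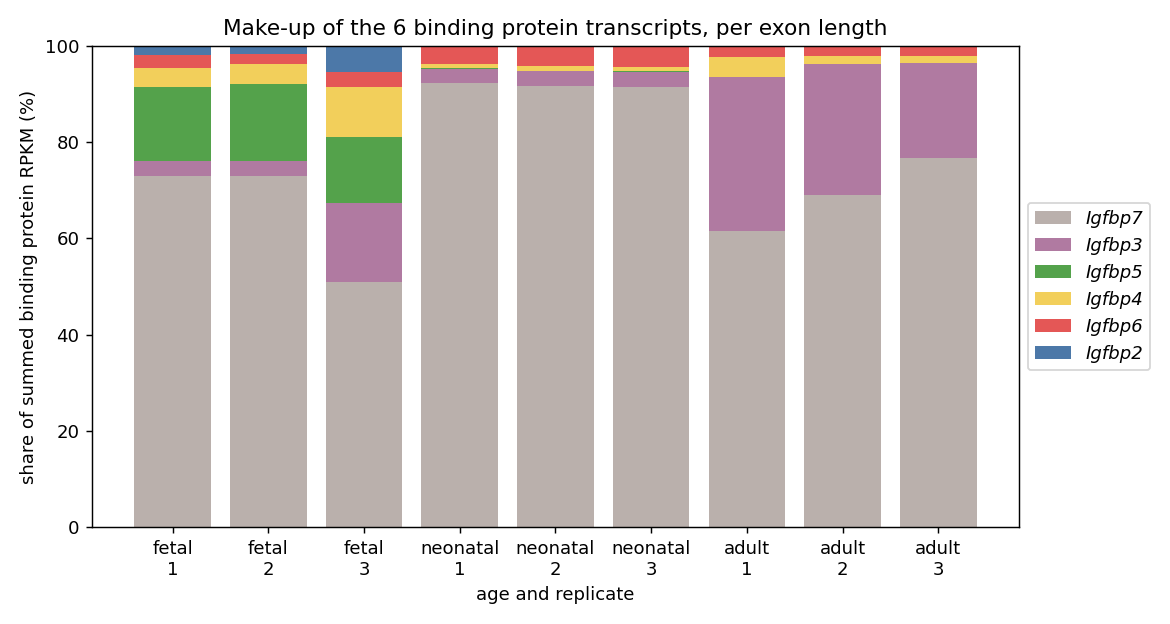
Share of each binding protein gene in the summed RPKM of the 6 genes, in percent, for each library. Neonatal libraries are almost all Igfbp7 (91.5% to 92.2%), fetal libraries add Igfbp5 (15.1% on average) and adult libraries add Igfbp3 (26.3% on average).

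The order of levels per length differed between the ages. In fetal libraries Igfbp7 (433 ± 156 RPKM) and Igf2r (174 ± 36.1) led, followed by Igfbp5 (97.9 ± 25.4), Igf2 (80.3 ± 33.8), Igfbp3 (42.4 ± 34.7) and Igfbp4 (36.3 ± 12.9), of which each overlapped the next. Igfbp2 (17.8 ± 8.47), Igfbp6 (16.5 ± 1.95), Igf1r (16.3 ± 1.52) and Igf1 (13.4 ± 4.09) closed the order and overlapped one another in the same way. In neonatal libraries no neighbours in the order overlapped, from Igfbp7 (1229 ± 11.1) through Igf2r (132.5 ± 1.87), Igfbp6 (52.3 ± 4.06), Igfbp3 (40.4 ± 1.09), Igf1 (20.2 ± 0.745), Igf1r (14.0 ± 0.940), Igfbp4 (11.7 ± 0.671), Igf2 (8.19 ± 0.119) and Igfbp2 (3.13 ± 0.0953) to Igfbp5 (1.90 ± 0.187). In adult libraries Igfbp7 (1827 ± 231) was followed by Igfbp3 (733 ± 334) and Igf1 (149.9 ± 57.7), each apart from the next. Igf2r (71.7 ± 15.6), Igfbp4 (69.4 ± 60.8) and Igfbp6 (58.9 ± 18.6) overlapped, Igf1r (5.04 ± 0.743) stood alone, and Igfbp2 (1.32 ± 0.286), Igfbp5 (0.715 ± 0.388) and Igf2 (0.551 ± 0.0467) overlapped at the end. By mean level Igf2 took the fourth place in fetal and the last in adult libraries, and Igf1 the last in fetal and the third in adult libraries. The last places do not hold in each library: Igfbp2 was below Igf1 in fetal replicates 1 (14.2 and 14.6 RPKM) and 2 (11.7 and 16.7 RPKM), and Igfbp5 was below Igf2 in adult replicate 1 (0.329 and 0.577 RPKM).

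Libraries of the same age spread unevenly over the axis. The neonatal libraries were the tightest, with a coefficient of variation of CPM from 0.903% for Igfbp7 to 9.87% for Igfbp5. In fetal libraries it ran from 9.32% for Igf1r to 81.8% for Igfbp3, and in adult libraries from 8.48% for Igf2 to 87.6% for Igfbp4. Fetal replicate 3 lay more than 1.5 times outside the other fetal libraries for 7 of the 10 genes. Against the mean of those 2 libraries it was 3.68 times as high for Igfbp3, 2.12 for Igfbp2, 1.96 for Igf2 and 1.77 for Igfbp4, and 0.486 times for Igfbp7, 0.562 for Igf1 and 0.609 for Igfbp5. Adult replicate 1 was the highest adult library for 7 of the 10 genes. It was 1.97 times the mean of the other adult libraries for Igfbp3, 1.85 for Igf1 and 1.66 for Igfbp6, and 0.363 times for Igfbp5. In the same library the 6 mesothelial markers that were in the table, of 8 listed, summed to 495 CPM against 303 and 209.6 in the other adult libraries. Aldh1a2 gave 437, 254 and 169 CPM of these sums. Of the 6, 3 were highest in adult replicate 1 (Aldh1a2, Wt1 and Msln), and Tbx18 was lowest there. Endothelial markers summed to 118 CPM there against 110.3 and 98.5, with 7 of 8 highest in adult replicate 1 and Tie1 highest in adult replicate 2. Fibroblast markers summed to 26667 CPM against 32175 and 34608, with 5 of 10 lowest there (Col1a1, Col3a1, Lum, Thy1 and Vim) and 5 highest, among them Pdgfra (669 CPM, against 384 and 245), Dcn (471, against 359 and 229.7) and Tcf21 (226, against 113 and 108). Their part in these values was not tested.

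Some genes outside the axis had profiles close to those of its members. Likeness was measured as the root mean square difference of log2 CPM over the 9 libraries, after each gene was centred on its own mean, among 8323 genes with a mean of at least 10 CPM. Nearest to Igf1 were Mgp (0.178 on the log2 scale), which encodes a matrix protein that opposes calcification, and Socs3 (0.180), a cytokine signalling inhibitor. Nearest to Igf2r were Dpy19l3 (0.0679) and Irs2 (0.0998), an adaptor of insulin and IGF receptors, and nearest to Igfbp7 were Ssc5d (0.116) and Adamts2 (0.134), a procollagen protease. Igfbp6 was nearest to Col6a2 (0.119) and Spry1 (0.122), Igf1r to Creb3l2 (0.116) and Prrc2c (0.118), and Igfbp2 to Nnat (0.172) and Nptxr (0.300). Igf2 was nearest to Myh3 (0.453), an embryonic skeletal myosin, and Ano1 (0.470), and Igfbp5 to Stmn2 (0.814) and F2rl1 (0.851). Igfbp3 was nearest to Slfn2 (0.312) and Smoc2 (0.429), and Igfbp4 to Fmod (0.381) and Btg2 (0.401). These distances are descriptions over libraries that share 3 ages. Profiles were not scaled to the size of a gene's change, so the distances of different members cannot be ranked against one another.

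The remaining genes of the pathway were followed as a list of 48, of which 44 were in the count table and 39 were tested. Between neonatal and fetal cells 6 of the 39 were higher (18.3% of all genes), 8 lower (18%) and 25 did not pass (63.7%). Between adult and fetal cells 8 were higher (34.9%), 20 lower (35.5%) and 11 did not pass (29.5%). The median log2 difference was then -0.32 over the list and -0.013 over all tested genes. Between adult and neonatal cells 6 were higher (31.6%), 21 lower (31.8%) and 12 did not pass (36.5%). The medians of the list and of all tested genes were then -0.48 and -0.0065. Shares in brackets are those of all tested genes in the same comparison.

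**Figure D5:**
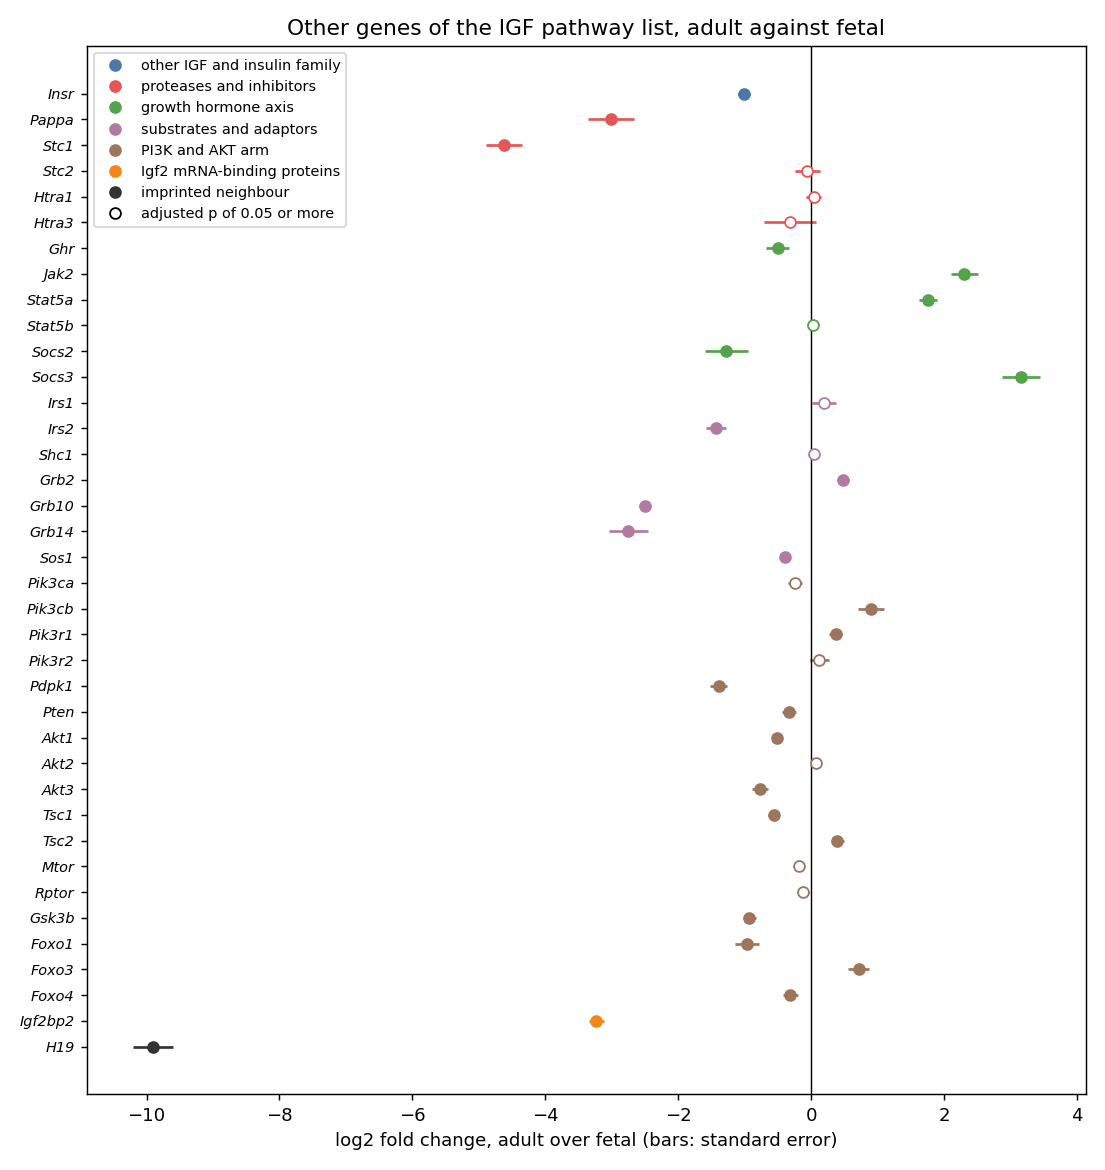
Log2 difference of adult from fetal cells, with standard error, for the tested genes of the pathway list other than Igf2bp1, which was at or below 3 counts in all adult libraries. Filled points passed the test, and colours give the roles. H19 (-9.91), Stc1 (-4.62), Igf2bp2 (-3.23) and Pappa (-3.01) lie farthest to the left and Socs3 (3.16) and Jak2 (2.31) farthest to the right.

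Genes that handle Igf2 RNA or lie beside it fell with Igf2. Both tested Igf2 mRNA-binding protein genes fell at each step. Igf2bp1 was at 37.6 ± 14.9 CPM in fetal and 8.18 ± 0.633 in neonatal cells (log2 -2.20, SE 0.28, edgeR adjusted p = 0.0005453) and had at most 2 counts in any adult library. Against a floor of 3 counts per library the adult level was at least 168-fold lower than the fetal level (edgeR adjusted p = 7.139e-07) and at least 36.6-fold lower than the neonatal level (edgeR adjusted p = 1.413e-05). Igf2bp2 was at 78.3 ± 5.47 CPM in fetal cells and fell to 39.6 ± 0.523 CPM by the neonatal age (edgeR adjusted p = 0.0001706) and to 8.34 ± 1.42 CPM by the adult age (edgeR adjusted p = 4.29e-07). H19, the imprinted noncoding RNA next to Igf2 on chromosome 1, had log2 differences of -3.45 (SE 0.20, edgeR adjusted p = 1.088e-05) and -6.46 (SE 0.29, edgeR adjusted p = 2.421e-07) at the same steps, beside -3.29 and -3.89 for Igf2. The adult values of H19 rest on 7, 15 and 7 counts.

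Of the genes that release IGFs from binding proteins, Pappa, which encodes pappalysin, was at 42.3 ± 17.4 CPM in fetal cells. It fell to 15.02 ± 2.52 CPM by the neonatal age (log2 -1.49, SE 0.30, edgeR adjusted p = 0.006165) and to 5.25 ± 0.893 CPM by the adult age (log2 -1.52, SE 0.34, edgeR adjusted p = 0.004012). Stc1, whose product stanniocalcin inhibits pappalysin, was at 20.9 ± 5.47 CPM in fetal and 17.1 ± 2.30 CPM in neonatal cells. It fell to 0.844 ± 0.214 CPM in adult cells, from 13, 13 and 8 counts (20.0-fold lower than neonatal, edgeR adjusted p = 1.664e-06). Stc2, a related gene chosen after its values were seen, did not pass between adult and fetal cells (log2 -0.060, edgeR adjusted p = 0.7882). It was at 18.3 ± 3.40 CPM in fetal, 9.56 ± 0.492 CPM in neonatal and 17.6 ± 4.39 CPM in adult cells. The adult level of Stc2 was higher than the neonatal level (log2 0.88, SE 0.19, edgeR adjusted p = 0.003328). The serine protease genes Htra1 and Htra3 did not pass between adult and fetal cells (log2 0.040 and -0.32, edgeR adjusted p = 0.7651 and 0.4807). Htra1 had its highest level in neonatal cells, at 912 ± 12.2 CPM, and was higher there than in fetal cells (567 ± 50.3 CPM, log2 0.69, SE 0.11, edgeR adjusted p = 0.001967) and lower again in adult cells (583 ± 90.1 CPM, adult against neonatal log2 -0.65, SE 0.11, edgeR adjusted p = 0.0008154). Without adult replicate 1 the Htra3 difference was -1.05 and passed (edgeR adjusted p = 0.0009532). Without adult replicate 3 it was 0.020 (edgeR adjusted p = 0.9587).

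In the growth hormone arm 3 of 6 tested genes were higher (34.9% of all genes) and 2 lower (35.5%) in adult than fetal cells. Ghr, the growth hormone receptor, which was chosen after its values were seen, was lower in adult cells (29.6 ± 7.32 CPM) than in fetal cells (41.9 ± 6.95 CPM, log2 -0.50, SE 0.17, edgeR adjusted p = 0.02585) and neonatal cells (49.5 ± 1.79 CPM, log2 -0.74, SE 0.17, edgeR adjusted p = 0.004303), though adult and fetal libraries overlapped. Jak2, the kinase bound to the growth hormone receptor, was at 47.7 ± 11.5 CPM in fetal cells and rose to 81.7 ± 2.26 CPM by the neonatal and 235.9 ± 58.0 CPM by the adult age (adult against fetal log2 2.31, SE 0.20, edgeR adjusted p = 9.12e-06). Stat5a, which carries the signal to the nucleus, was 3.37-fold higher in adult than in fetal cells (11.4 ± 1.86 to 38.6 ± 3.08 CPM, edgeR adjusted p = 3.047e-06). Stat5b, chosen after its values were seen, passed in no comparison (adult against fetal log2 0.032, edgeR adjusted p = 0.7553). Its levels were 25.3 ± 0.794 CPM in fetal, 27.8 ± 0.373 CPM in neonatal and 25.9 ± 2.67 CPM in adult cells. The feedback inhibitors parted: Socs3 was 8.93-fold higher in adult than in fetal cells (14.4 ± 3.13 to 128.6 ± 52.7 CPM, edgeR adjusted p = 1.315e-05) and Socs2 was 2.42-fold lower (9.80 ± 1.22 to 4.05 ± 2.21 CPM, edgeR adjusted p = 0.005794). These genes are also used by cytokine receptors, and macrophage markers were at 4383 to 6072 CPM in the adult libraries against 14.7 to 71.1 CPM in the fetal ones. The part of those cells was not tested.

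Downstream of the receptors, 4 of 7 tested substrates and adaptors were lower in adult than in fetal cells and 1 was higher, against 35.5% and 34.9% of all tested genes, and this share was not tested. Insr, the insulin receptor, was 2.02-fold lower in adult than in fetal cells (35.6 ± 1.46 to 17.7 ± 1.66 CPM, edgeR adjusted p = 6.268e-06). Grb10, an imprinted inhibitor of these receptors, was 5.65-fold lower (log2 -2.50, SE 0.08, edgeR adjusted p = 1.919e-08) and Grb14, a related inhibitor, 6.74-fold lower (47.3 ± 14.8 to 7.01 ± 2.39 CPM, edgeR adjusted p = 2.998e-05). The receptor substrate Irs2 was 2.70-fold lower (79.2 ± 10.7 to 29.4 ± 6.36 CPM, edgeR adjusted p = 2.346e-05), and Sos1, an activator of Ras, 1.32-fold lower (edgeR adjusted p = 0.0005018). The remaining genes were named after their values were seen. The higher gene was Grb2 (1.40-fold, edgeR adjusted p = 0.0009485). Irs1 (log2 0.19, edgeR adjusted p = 0.3658) and Shc1 (log2 0.049, edgeR adjusted p = 0.5667) did not pass.

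Of the 17 tested genes of the PI3K and AKT arm, 4 were higher, 8 lower and 5 did not pass between adult and fetal cells. The shares of all tested genes were 34.9%, 35.5% and 29.5%. The median log2 difference of the 17 genes was -0.24. Pdpk1, the kinase that activates AKT, was 2.63-fold lower in adult cells (23.7 ± 2.07 to 9.02 ± 1.31 CPM, edgeR adjusted p = 9.891e-06), and Gsk3b, a kinase that AKT inhibits, 1.90-fold lower (edgeR adjusted p = 1.565e-05). Akt1 was 1.43-fold lower (323 ± 8.91 to 226.6 ± 1.08 CPM, edgeR adjusted p = 2.903e-05) and Tsc1, a brake on mTOR, 1.48-fold lower (edgeR adjusted p = 0.0002014). The 4 higher genes, named after their values were seen, were Pik3cb (1.86-fold), Foxo3 (1.64-fold), Tsc2 (1.32-fold) and Pik3r1 (1.29-fold). Akt2, chosen in the same way, did not pass (log2 0.071, edgeR adjusted p = 0.3619).

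Between neonatal and fetal cells 14 of the 17 genes of this arm did not pass, against 63.7% of all tested genes. Igfbp1, Igfbpl1, Igfals, Insrr and M6pr were at or below 3 counts in every library. M6pr encodes the other mannose 6-phosphate receptor, which most cells use, so its counts here are no measure of its expression. Pappa2, Irs4, Rictor and Igf2bp3 were not analysed here.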

How the data were processed

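Raw gene counts of all 9 libraries were used. They were deposited by the authors as whole-number counts from featureCounts 1.6.3 with an rn6 annotation, per the file headers, whose command sets no strand option. The submitters' processing notes also name Trimmomatic 0.39, STAR 2.5.2b and DESeq2. A deposited table of normalized signal values equalled the counts divided by 1 size factor per library, within 4.96e-05%, and was not used in tests. Exon lengths came from the count table.

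Genes were kept by filterByExpr (11337 of 17337). Counts were scaled by TMM and fitted over all 9 libraries with age as the only term in edgeR 4.0.16 (R 4.3.3, glmQLFit, robust). CPM and RPKM use TMM-scaled library sizes, and log2 CPM a prior count of 2. Each standard error is the size of the log2 fold change over the square root of its F value. The fit was run on simulated data with the same spread for every gene and no library that stood apart. That run cannot speak for libraries such as fetal replicate 3 or adult replicate 1. A chi-square test found no pair of libraries of one age that agreed within counting error, but the pairs differed widely. Chi-square per degree of freedom was 2.05 to 2.76 for neonatal pairs and 3.94 for fetal replicates 1 and 2. It was 90.0 and 97.3 for pairs with fetal replicate 3. Adult pairs had 25.8 and 43.0 with replicate 1, and 6.76 without it. Reads are not independent molecules, so floors cover counting error only.

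The 10 genes, the pathway list and the marker lists were chosen with earlier results of these data known. All 10 genes are named, as are, from each part of the pathway list, up to 4 genes with the smallest adjusted p between adult and fetal cells and those with at most 3 counts in every library. Ghr, Stc2, Stat5b, Grb2, Irs1, Shc1, Pik3cb, Foxo3, Tsc2, Pik3r1 and Akt2 were added after their values were seen. The 2 nearest genes of each member are named by distance. Members' alternatives were DESeq2 1.42.0, its size factors, library size alone, no filter, a replicate block, the 2 ages alone and leaving out each library.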

Additional observations from a re-analysis of the deposited data

How the results depend on the processing

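The count of all genes called between neonatal and fetal cells, 4114, was 2476 to 4679 without 1 library. It changed by over 1.5 times only on leaving out neonatal replicate 1, 2 or 3 (2607, 2476 or 2575 genes), which leaves 2 libraries at that age. Over 15 alternatives the count of the 10 IGF axis genes called was 5 to 8 (neonatal and fetal cells), 9 to 10 (adult and fetal) and 7 to 9 (adult and neonatal). Of 450 refitted fold changes of these genes, 427 kept their direction and side of the threshold, 9 lost the call, 10 gained it and 4 changed sign. The changes of sign were in differences that had not passed: Igfbp3 between neonatal and fetal cells (0.066 with the replicate block, 0.85 without fetal replicate 3, -0.37 to 0.85 over single libraries left out), Igfbp4 between adult and fetal (-0.068 without adult replicate 1, to 1.31) and Igfbp6 between adult and neonatal cells (-0.12 without adult replicate 1, to 0.33). Lost calls were 8 for Igfbp4 between neonatal and fetal cells and 1 for Igfbp2 between adult and neonatal cells. The cause was not tested.

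Library size alone moved the median log2 difference of all genes to -0.18 between neonatal and fetal cells and -0.12 between adult and fetal cells. The share of calls that were higher was then 29.0% against 50.4% between neonatal and fetal cells. No IGF axis gene changed sign under it, while Igf1r (-0.39) and Igf2r (-0.55) were then called lower in neonatal cells. In the pathway list, added after seeing the data, Sos1 (-0.036) and Tsc1 (-0.052) changed sign under it between neonatal and fetal cells and Htra1 (-0.068) between adult and fetal cells. Htra1 also did so without fetal replicate 3 (-0.036) and without adult replicate 1 (-0.090), in a range up to 0.12. Htra3 did so between adult and fetal cells without adult replicate 3 (0.020, in a range from -1.05) and between adult and neonatal cells without adult replicate 1 (-0.020, in a range up to 1.05). Calls in that list were lost for Irs2 (5 alternatives) and Stat5a (4) and Jak2 (1) between neonatal and fetal cells and for Socs2 (3) between adult and neonatal cells.

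Replicate numbers did not pair the libraries: same-numbered libraries of different ages had correlations of -0.065 to 0.052 in their deviations. With the replicate block 3713, 7801 and 6985 genes were called in the 3 comparisons and 5, 9 and 8 of the IGF axis genes, with Igfbp4 lost between neonatal and fetal cells. Depth limits Igf2, Igfbp2 and Igfbp5 in adult libraries, where they had 7 to 36 counts. In the pathway list it limits H19 (7 to 15 counts) and Stc1 (8 to 13 counts) in the same libraries.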
